A study of Mus musculus with 11 samples.

Results

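The genes described here are 10 that encode the contractile filaments of striated muscle, out of 47517 gene names counted by RNA-seq in mouse forelimb buds collected at E10.5. They were chosen by name because their levels varied between control libraries, and with earlier results of these libraries known, so that variation is given as a description without a test. All 10 were in the counts table and passed the filter on low counts. Mutant embryos were Gmnn f/f; Prx-Cre (6 libraries) and controls were Gmnn +/f; Prx-Cre (5 libraries), on a C57BL/6 background, so that both groups carried the Cre transgene and at least 1 floxed allele. Gmnn encodes Geminin, an inhibitor of replication licensing. The libraries came from 4 litters, called A to D here: A held controls 1 and 2 and mutants 1 and 2, B held control 3 and mutant 6, C held control 4 and mutant 5, and D held control 5 and mutants 3 and 4. Prx-Cre is driven by a promoter active in limb mesenchyme, whereas the muscle cells of the limb come from the somites. Mutants and controls were matched by litter and somite number, and each title gives 1 embryo number. Total counts were 14721181 to 19733288 per library, which makes 1 read worth 0.0515 to 0.0701 CPM, the unit of levels here (reads relative to the library's total after scaling).

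In striated muscle, filaments of actin slide along filaments of myosin. Troponin on the actin filament carries the calcium switch, titin spans from the Z-disc to the middle of the sarcomere, and desmin ties sarcomeres together. In the mouse embryo the myotome of the somites and the heart make these proteins early. Cells that will form limb muscle enter the bud as Pax3-positive precursors and switch on Myf5, Myod1 and Myog before they make sarcomeres. Several of the 10 genes are not specific to skeletal muscle at this stage: Actc1, Tnnc1, Tnni1, Ttn and Des are also expressed in the embryonic heart.

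The forelimb label was checked against marker genes. Prrx1, a limb mesenchyme factor, stood at 199 to 313 CPM, and Tbx5, the forelimb factor, at 64.8 to 123 CPM. The hindlimb genes Tbx4 and Pitx1 stood at 0.561 to 6.11 and 0 to 4.07 CPM. Libraries that stand apart for muscle or heart genes are controls 1, 2 and 5, and the fold changes of the 10 genes are given with and without control 5, and for most of them without controls 2 and 5. Correlations and values of other genes are given at most without control 5.

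The 2 actin genes of striated muscle varied most. Acta1 (chromosome 8, 123891767 to 123894736, minus strand, mm10) encodes skeletal muscle actin. It had 85, 29, 10, 9 and 372 reads in controls 1 to 5, or 4.75, 1.49, 0.545, 0.523 and 26.1 CPM. In mutants 1 to 6 it had 8, 7, 8, 3, 4 and 4 reads, or 0.463, 0.463, 0.537, 0.178, 0.273 and 0.245 CPM. Controls 5, 1 and 2 were above every mutant, and controls 3 and 4 lay beside the highest mutants.

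Actc1 (chromosome 2, 114047282 to 114053548, minus strand) encodes cardiac actin, which embryonic skeletal muscle also makes. Its reads were 312, 796, 43, 29 and 429 in controls 1 to 5, or 17.4, 41.0, 2.34, 1.68 and 30.1 CPM. In mutants 1 to 6 they were 66, 28, 26, 32, 24 and 46, or 3.82, 1.85, 1.75, 1.90, 1.64 and 2.82 CPM. The same controls 1, 2 and 5 were high, but here control 2 led, and controls 3 and 4 lay within the range of the mutants. Actins are alike in sequence. Of the distinct 50-base windows in the transcripts of Acta1 in GENCODE M21, 2.02% also occurred in a transcript of another gene, among them Actb and Actg1, and 0% of those of Actc1 did.

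**Figure D1:**
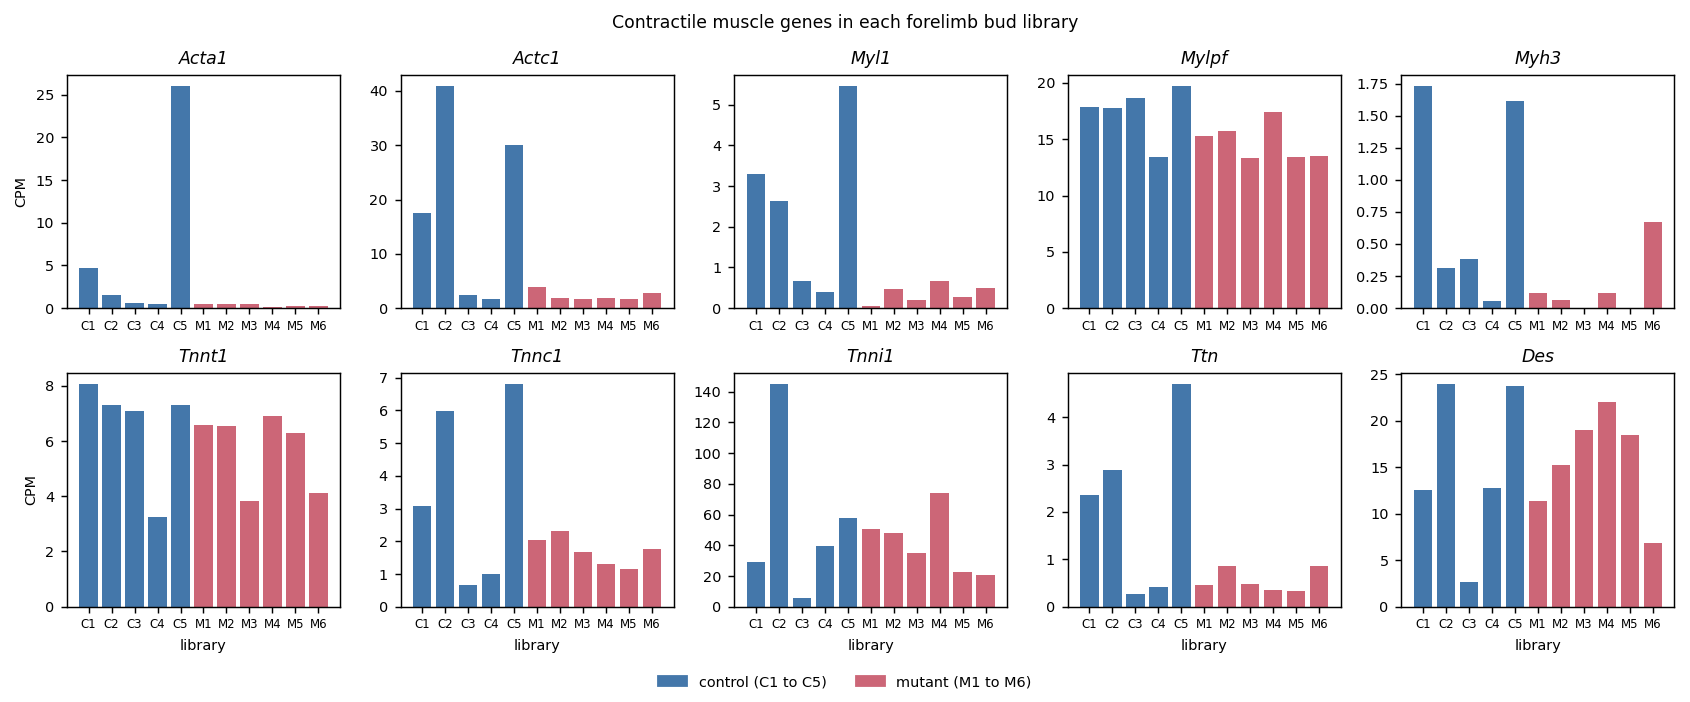
CPM of the 10 genes (one panel each, vertical axis from 0) in controls 1 to 5 (C1 to C5) and mutants 1 to 6 (M1 to M6); each bar is 1 library. Acta1 reaches 26.1 CPM in control 5 and at most 0.537 CPM in mutants, whereas the bars of Mylpf and Tnnt1 overlap between the groups with no library far above the rest.

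Promoter sequence is shown for genes that were high together in controls 1, 2 and 5 (Acta1, Actc1 and Myl1) and for Mylpf, which moved little. The sequences before the RefSeq start of a variable and a steady gene can thus be compared. Each run holds the 250 bases before the RefSeq start site (GRCm38.p6), 5′ to 3′ on the gene's strand, and capitals mark matches to any of the motifs named after them.
Acta1, chr8:123894776-123895025, minus strand: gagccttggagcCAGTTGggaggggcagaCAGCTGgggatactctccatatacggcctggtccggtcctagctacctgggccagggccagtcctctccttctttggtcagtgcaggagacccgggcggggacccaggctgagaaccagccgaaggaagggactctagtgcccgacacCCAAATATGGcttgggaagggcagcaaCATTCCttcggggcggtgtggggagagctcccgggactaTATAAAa
Actc1, chr2:114052876-114053125, minus strand: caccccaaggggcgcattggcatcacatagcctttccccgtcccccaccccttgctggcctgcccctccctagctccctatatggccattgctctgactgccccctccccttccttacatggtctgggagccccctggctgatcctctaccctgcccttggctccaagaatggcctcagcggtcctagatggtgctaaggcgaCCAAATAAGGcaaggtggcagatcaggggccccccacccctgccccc
Myl1, chr1:66945057-66945306, minus strand: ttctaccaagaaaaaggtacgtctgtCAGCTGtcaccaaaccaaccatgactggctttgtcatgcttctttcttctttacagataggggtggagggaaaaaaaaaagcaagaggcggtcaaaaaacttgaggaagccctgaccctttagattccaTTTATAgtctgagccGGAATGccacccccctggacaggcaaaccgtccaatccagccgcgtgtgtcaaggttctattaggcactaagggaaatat
Mylpf, chr7:127211358-127211607, plus strand: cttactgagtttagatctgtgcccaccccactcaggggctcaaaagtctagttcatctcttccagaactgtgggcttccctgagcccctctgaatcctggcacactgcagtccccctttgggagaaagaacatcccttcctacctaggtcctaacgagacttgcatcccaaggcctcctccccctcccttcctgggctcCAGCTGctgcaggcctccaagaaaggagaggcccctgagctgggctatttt

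The motifs were searched on both strands: the CArG box bound by serum response factor, the MEF2 site, the E box CANNTG bound by myogenic factors, the M-CAT motif CATTCC bound by TEAD factors, and TATAAA. The letters of the MEF2 site, the CArG box and TATAAA can overlap, and the match is a description of letters, not of binding. Acta1 held a CArG box 73 to 64 bases before the start, an M-CAT motif, 2 E boxes and TATAAA, and Actc1 held a CArG box 47 to 38 bases before it. No other gene of the 10 held a CArG box in this window, which 1.47% of 32851 promoters of the same length did. Ttn held the only MEF2 site among the 10, a motif found in 2.92% of promoters. An E box was present in the windows of 9 of the 10 genes, all but Actc1, and in 66.2% of all promoters. M-CAT was present in 3 of the 10 (12.6% of promoters) and TATAAA in 4 (12.4%). Myl1 held an E box, and M-CAT and TATAAA on the reverse strand, and Mylpf held 1 E box alone. The RefSeq table gave 2 promoters for Tnni1 and 1 for each of the other genes. The counts table places the end of Acta1 at 123894736, inside the bases that follow this RefSeq start. For Actc1, Myl1 and Mylpf the window lies inside the span counted for the gene. Those spans run to 114053548 for Actc1, to 66945404 for Myl1 and from 127208890 for Mylpf. The windows of Tnnt1 and Tnni1 also lie inside the counted spans. Such windows precede the RefSeq start but not the whole counted gene.

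The 3 myosin genes differed in how far they varied, Myl1 and Myh3 widely and Mylpf little. Myl1 (chromosome 1, 66924295 to 66945404) encodes the alkali light chain of fast skeletal muscle. It had 59, 51, 12, 7 and 78 reads in controls 1 to 5 (3.30, 2.63, 0.654, 0.407 and 5.47 CPM) and 1, 7, 3, 11, 4 and 8 in mutants 1 to 6 (0.0578, 0.463, 0.202, 0.654, 0.273 and 0.491 CPM). Controls 5, 1 and 2 were again the highest, and controls 3 and 4 were among the mutants. In M21, 11.7% of the 50-base windows of Myl1 occurred in the pseudogene Mylf-ps, so that its counts are less certain.

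Myh3 (chromosome 11, 67078300 to 67102291), the embryonic myosin heavy chain, was close to the detection limit. Its reads were 31, 6, 7, 1 and 23 in controls and 2, 1, 0, 2, 0 and 11 in mutants, or up to 1.73 CPM in control 1 and 0.675 CPM in mutant 6. In mutants 3 and 5 no read was found, which allows up to 0.201 and 0.205 CPM (3 reads). Controls 1 and 5 were the highest and mutant 6 came next, above controls 2, 3 and 4. Of its 50-base windows, 4.76% occurred in other myosin heavy chain genes.

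Mylpf (chromosome 7, 127208890 to 127214298) encodes the regulatory light chain of fast skeletal muscle. It stood at 17.9, 17.8, 18.6, 13.4 and 19.8 CPM in controls 1 to 5 and 15.3, 15.7, 13.3, 17.4, 13.4 and 13.5 CPM in mutants 1 to 6. Its highest library was 1.49 times its lowest, where that ratio was 146 for Acta1 and 25.0 for Actc1. The groups overlapped, and control 5 was the highest library, as for Acta1, with control 3 next.

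The 3 troponin genes each had a pattern of their own. Tnnt1 (chromosome 7, 4504570 to 4516382), troponin T of slow muscle, stood at 8.05, 7.31, 7.09, 3.25 and 7.29 CPM in controls and 6.59, 6.55, 3.83, 6.90, 6.29 and 4.11 CPM in mutants, with control 4 the lowest. Tnnc1 (chromosome 14, 31208312 to 31211729), troponin C of slow muscle and heart, stood at 3.08, 5.97, 0.654, 0.988 and 6.80 CPM in controls and 2.02, 2.32, 1.68, 1.31, 1.16 and 1.78 CPM in mutants. Controls 1, 2 and 5 were thus above, and controls 3 and 4 below, all mutants for Tnnc1.

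Tnni1 (chromosome 1, 135779434 to 135810989), troponin I of slow muscle and the embryonic heart, had the most reads of the 10. It had 519, 2814, 103, 683 and 824 reads in controls 1 to 5, or 29.0, 145, 5.62, 39.7 and 57.7 CPM. In mutants 1 to 6 it had 873, 723, 520, 1241, 327 and 339 reads, or 50.5, 47.8, 34.9, 73.8, 22.3 and 20.8 CPM. Control 2 was the highest and control 3 the lowest, and the mutants lay between them. Control 1, high for both actins, was among the lower libraries here.

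Ttn (chromosome 2, 76703980 to 76982547) encodes titin. It had 42, 56, 5, 7 and 67 reads in controls and 8, 13, 7, 6, 5 and 14 in mutants, or 2.35, 2.88, 0.273, 0.407 and 4.69 CPM against 0.463, 0.860, 0.470, 0.357, 0.342 and 0.859 CPM. These are few reads for a transcript with 116825 exon bases in the table. Des (chromosome 1, 75360329 to 75368579), the intermediate filament desmin, stood at 12.5, 23.9, 2.67, 12.8 and 23.8 CPM in controls and 11.4, 15.3, 19.0, 22.1, 18.4 and 6.81 CPM in mutants. Ttn followed the actins, and Des followed Tnni1, with control 3 the lowest of all libraries for both. Exons of Des and Ttn overlap genes of the opposite strand (5.86% and 0.388% of exon bases), and reads there were counted without strand.

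Per kilobase of exon (RPKM), the order of the mean levels in controls was Mylpf (16.5), Tnni1 (15.4), Actc1 (11.4), Acta1 (4.66), Des (4.03), Tnnc1 (3.36), Tnnt1 (2.99), Myl1 (1.20), Myh3 (0.135) and Ttn (0.0182). In mutants it was Mylpf (13.9), Tnni1 (11.6), Des (4.13), Tnnt1 (2.59), Tnnc1 (1.64), Actc1 (1.42), Acta1 (0.251), Myl1 (0.172), Myh3 (0.0268) and Ttn (0.00478). Neighbours in the control order were not separated by their spread: Tnni1 ranged from 1.56 to 40.2 RPKM over the 5 controls, around the range of Mylpf (12.6 to 18.6 RPKM). The gene list therefore held transcripts present in every library at a steady level beside transcripts with few reads in most libraries.

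The spread between control libraries, which chose the genes, was largest for the actins. The SD of log2 CPM over the 5 controls was 2.25 for Acta1, 2.09 for Actc1, 1.71 for Tnni1, 1.61 for Ttn, 1.46 for Myl1, 1.44 for Myh3, 1.43 for Tnnc1 and 1.27 for Des, at percentile 98.2 or higher among the 15821 genes tested. It was 0.52 for Tnnt1 and 0.21 for Mylpf (percentiles 80.6 and 43.2), so that these members did not vary in the way that the list was chosen for. Over the 6 mutants the SD was 1.0 for Myh3, 0.77 for Myl1, 0.71 for Tnni1, 0.62 for Des, 0.49 for Ttn, 0.46 for Acta1 and 0.46 for Actc1, and at most 0.37 for Tnnt1, Tnnc1 and Mylpf. The percentiles ran from 28.2 (Mylpf) to 96.7 (Myh3), so that some members varied more than most genes among mutants too. Myh3 had 0 to 11 reads and Myl1 1 to 11 in mutants, and at such counts the SD includes counting error. Tnni1 and Des, with more reads, stood at percentiles 90.5 and 86.7.

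All 10 genes had their highest level in controls 1, 2 or 5: Acta1, Myl1, Mylpf, Tnnc1 and Ttn in control 5, Actc1, Tnni1 and Des in control 2, and Myh3 and Tnnt1 in control 1. Of all genes tested, 11.7% were highest in control 5, 7.22% in control 2 and 10.9% in control 1. Those 3 controls were the 3 highest libraries for Acta1, Actc1, Myl1, Tnnt1, Tnnc1 and Ttn, 6 of the 10, against 0.708% of all genes tested. This pattern is how the genes were chosen and is not support for it. Relative to the median of the other 8 libraries, control 5 was 56.3 times higher for Acta1, 16.0 for Actc1, 12.6 for Myl1 and 10.8 for Ttn. Control 2 was 21.8 times higher for Actc1, 6.63 for Ttn, 6.04 for Myl1, 4 for Tnnc1 and 3.88 for Tnni1, but 3.23 for Acta1. Control 1 was 10.3 times higher for Acta1, 9.29 for Actc1 and 7.59 for Myl1, and below that median for Tnni1 and Des (0.778 and 0.893).

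Summed over Acta1, Actc1, Myl1, Myh3 and Ttn, 5 genes picked after their values were seen, controls 1, 2 and 5 had 30.1, 47.5 and 65.6 CPM of the unscaled totals. The exact (Clopper-Pearson) 95% intervals were 27.6 to 32.8, 44.5 to 50.7 and 61.5 to 69.8. The other 8 libraries had 2.51 to 5.29, with intervals from 1.77 to 6.56. Such intervals cover counting error only. Summed over all 10 genes, the order was different. Control 2 had 244 CPM of the unscaled total, control 5 had 177, mutant 4 had 123 (interval 118 to 128) and control 1 had 102 (interval 97.3 to 107), and the other libraries had 39.8 to 93.8. Mutant 4 thus lay above control 1 in the sum over the 10, in which Tnni1 has the most reads.

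As a description over the 11 libraries, which share 1 scaling and are of unequal depth, log2 levels of Actc1 and Ttn had a Pearson correlation of 0.92 (0.90 without control 5), Acta1 and Actc1 0.82 (0.79), and Acta1 and Myl1 0.83 (0.74). Tnni1 and Des had 0.85 (0.85), but Acta1 and Tnni1 only 0.22 (0.12), and Acta1 and Des 0.27 (0.05). Mylpf and Tnnt1 had 0.80 (0.81). Mylpf also had 0.74 (0.65) with Myl1, 0.66 (0.55) with Actc1 and 0.64 (0.47) with Acta1, although its levels moved little. Myh3 had 0.80 (0.71) with Myl1 and 0.74 (0.64) with Acta1. Tnnc1 had 0.94 (0.91) with Ttn and 0.68 (0.71) with Tnni1. The pattern of Tnni1 and Des was thus the one least like that of Acta1.

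Outside the list, the genes whose log2 level was most like the mean of the 10 over 11 libraries were Tnnt2 (Pearson 0.89, rank correlation 0.88), Pelp1 (0.87, 0.95), Slc4a2 (0.87, 0.68), Smyd1 (0.86, 0.84), Gga1 (0.86, 0.71), Grik4 (0.85, 0.65), Ndn (0.85, 0.77) and Chrng (0.84, 0.85). Of these, Tnnt2 encodes cardiac troponin T, Smyd1 a methyltransferase of heart and skeletal muscle, and Chrng a subunit of the fetal muscle acetylcholine receptor. Tnnt2 stood at 2.07, 13.8 and 6.87 CPM in controls 1, 2 and 5 and at 0.164 to 1.14 CPM in the other libraries. Pelp1 moved only between 44.2 and 53.0 CPM, so that likeness of pattern did not imply a change of like size. Over the 10 libraries without control 5, Ndn (0.89), Tnnt2 (0.87), Dhx35 (0.86), Rtbdn (0.86), Smyd1 (0.85), Tctn2 (0.85), Trpc6 (0.85) and Copz2 (0.85) were the most alike.

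Mutants and controls were then compared in a fit over all genes with litter as a block. Acta1, Actc1 and Myl1 were called lower in mutants, and the other 7 genes did not pass the threshold. Controls 3 and 4 lay beside or among the mutants for these 3 genes, so most of the difference lay in controls 1, 2 and 5. These 3 calls lay close to the threshold and were lost without the litter block (edgeR adjusted p 0.0591, 0.0574 and 0.0591). Acta1 averaged 6.68 ± 10.98 CPM over controls (SD, n = 5) and 0.360 ± 0.146 over mutants (SD, n = 6), or -3.78 on the log2 scale with an SE of 0.69 (edgeR quasi-likelihood fit, p adjusted by Benjamini-Hochberg 0.0353). Actc1 went from 18.5 ± 17.2 to 2.30 ± 0.858 CPM (-2.59, SE 0.57, edgeR adjusted p 0.0464) and Myl1 from 2.49 ± 2.08 to 0.357 ± 0.218 CPM (-2.66, SE 0.56, edgeR adjusted p 0.0452). These 3 of 10 stand against 1.48% of genes tested that were called lower in mutants and 2.18% called in either direction. Of the 345 genes called in all, 32.2% were higher in mutants, or 43.1% of 360 with upper-quartile scaling. The genes were chosen on the same control libraries, so neither the count nor these p-values support a change in these 3 genes or over the list. Acta1 had 3 to 8 reads in the mutants and entered the fit through controls. In bulk tissue, the number of muscle cells and the RNA per muscle cell cannot be told apart.

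Of the genes that did not pass, Myh3 stood at -2.53 on that scale (SE 0.85, edgeR adjusted p 0.121), Ttn -1.69 (SE 0.57, adjusted p 0.12), Tnnc1 -0.83 (SE 0.42, adjusted p 0.274) and Mylpf -0.26 (SE 0.11, adjusted p 0.191). Tnni1 had -0.23 (SE 0.43), Tnnt1 -0.18 (SE 0.22) and Des 0.06 (SE 0.24), with adjusted p of 0.803, 0.697 and 0.917. For Tnni1 the control mean was 55.4 ± 53.5 CPM (SD, n = 5) and the mutant mean 41.7 ± 20.0 (SD, n = 6), and for Des 15.1 ± 8.94 and 15.5 ± 5.59 CPM. The median log2 fold change was -1.26 over the 10 genes and 0.00 over all genes tested. At an unadjusted p under 0.05 there were 6 of the 10, against 21.4% of all genes. This count, too, rests on the control libraries that chose the genes and supports no change. For 0 of the 10 genes did the groups separate fully, where the mutants lay wholly below the controls for 1.3% of genes.

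**Figure D2:**
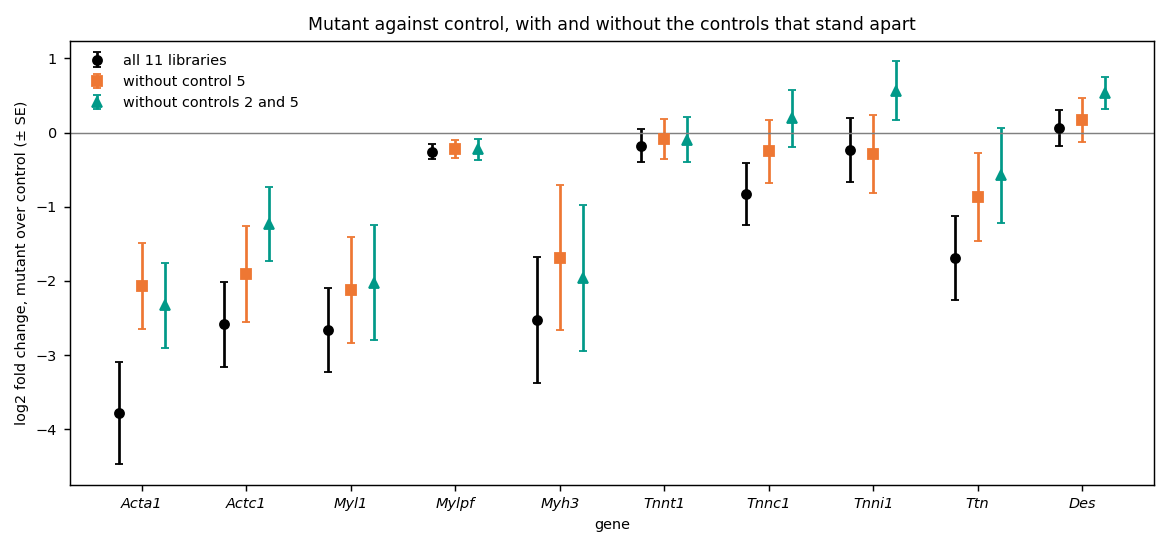
Log2 fold change of mutant over control for each gene, with its standard error (SE) from the edgeR fit, over all 11 libraries (circles), without control 5 (squares) and without controls 2 and 5 (triangles). Acta1 moves from -3.78 to -2.07 without control 5, and Tnnc1 and Tnni1 lie above 0 without controls 2 and 5.

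Most of these calls were lost when a single library was left out. Actc1 and Myl1 lost theirs whichever of the 11 libraries it was, and Acta1 in 9 of 11 cases (edgeR adjusted p up to 0.132), keeping it without control 2 (0.0394) and without mutant 2 (0.0304). Without control 3, whose levels were low, the log2 fold change of Acta1 was larger (-4.10, adjusted p 0.129). Without control 5, 0 of the 10 genes passed in edgeR, while 5.35% of all genes tested did and 3.51% were called lower in mutants. The values were then -2.07 (SE 0.58, adjusted p 0.0614) for Acta1, -1.91 (SE 0.64, adjusted p 0.107) for Actc1 and -2.12 (SE 0.71, adjusted p 0.105) for Myl1, and the median of the list was -0.58. Myh3 then had -1.69, Ttn -0.87, Tnni1 -0.29, Tnnc1 -0.25, Mylpf -0.22, Tnnt1 -0.09 and Des 0.17. Without controls 2 and 5, a choice made after the levels were seen, 0 of the 10 passed, while 2.4% of all genes did. Acta1 had -2.33, Actc1 -1.23, Myl1 -2.02 and Ttn -0.58, while Tnnc1, Tnni1 and Des had 0.19, 0.57 and 0.53.

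Within litters the size of the difference ranged widely, and the test of that variation called no member. In log2 units, mutant minus control was -2.26, -0.86, -0.71 and -5.88 for Acta1 in litters A to D, and for Myl1 -3.25, -0.34, -0.42 and -3.48. For Actc1 the differences were -3.27, 0.26, -0.04 and -3.96, and for Ttn -1.85, 1.32, -0.19 and -3.18. Tnni1 had -0.40, 1.87, -0.83 and -0.18, and Des -0.39, 1.31, 0.53 and -0.21. The large differences of Acta1, Actc1, Myl1 and Ttn lay in litters A and D, which hold controls 1, 2 and 5, and in litter B the single control had less Ttn, Tnni1 and Des than the single mutant. The genotype by litter interaction called 0 of the 10 (edgeR, residual degrees of freedom 3) and 0% of all genes. Unadjusted, 5 of the 10 fell under 0.05, as did 3.82% of all genes. Litters differed for 0 of the 10 as well, against 0.0885% of genes. At an unadjusted p under 0.05 in that litter test there were 3 of the 10, against 13.5% of all genes. Variation between controls, which mostly come from different litters, chose these genes. Neither unadjusted count therefore supports a difference by litter.

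**Figure D3:**
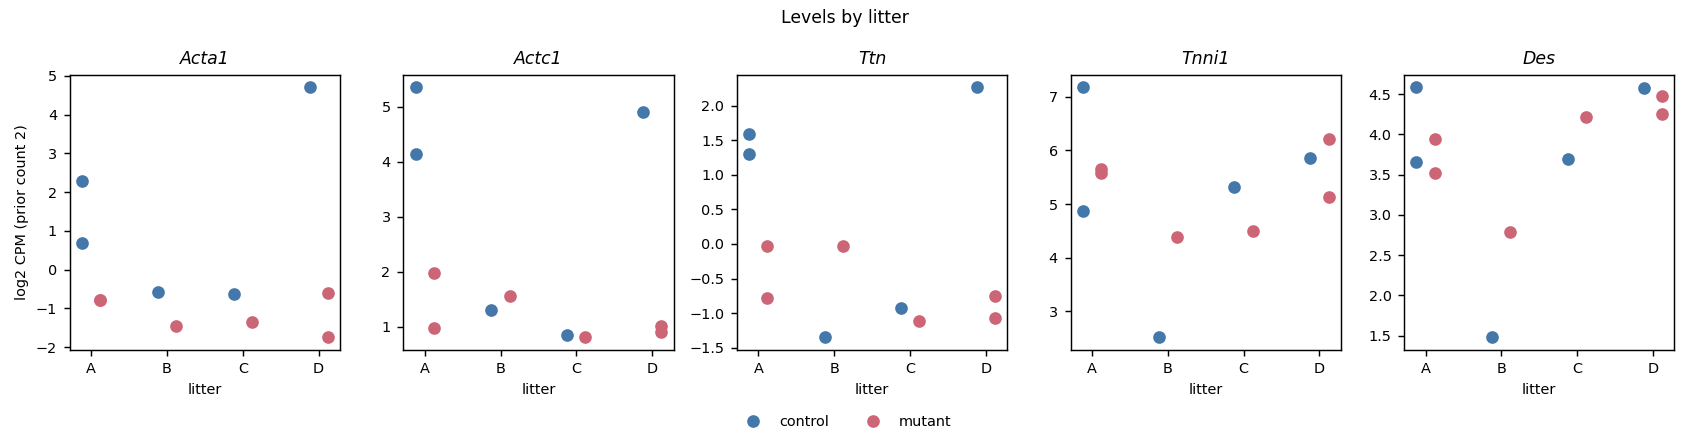
Log2 CPM (prior count 2, vertical axis) of 5 of the genes by litter A to D (horizontal axis); each point is 1 library, blue for control and red for mutant. In litters A and D the control points of Acta1, Actc1 and Ttn lie above all mutant points, and in litters B and C controls and mutants lie within 1.32 log2 units for these genes.

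Genes that act earlier in muscle formation were measured in the same libraries. Myog, the factor that drives fusion and sarcomere assembly, stood at 18.1, 5.87, 4.03, 1.28 and 10.4 CPM in controls and 5.09, 2.58, 0.873, 0.0595, 1.5 and 3.13 CPM in mutants. Controls 1, 5 and 2 were the highest for Myog too, in a different order from Acta1. Myf5, which marks commitment, stood at 15.8, 3.4, 40.6, 10.6 and 8.55 CPM in controls and 6.71, 4.63, 2.82, 0.238, 5.06 and 19.3 CPM in mutants. Control 3 had the most Myf5 and mutant 6, of the same litter, the next most, while both were low for Acta1. For Myod1, control 3 had 2.62 CPM and no other library more than 0.671 CPM.

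Of the 12 genes of myogenic commitment and differentiation, 9 entered the fit, with 1 called lower and 1 higher. Tmem8c, which encodes the fusion protein myomaker, stood at 0.839, 0.309, 0.218, 0 and 2.10 CPM in controls and at most 0.269 CPM in mutants (log2 fold change -3.91, SE 0.85, edgeR adjusted p 0.0468, and 0.114 without control 5). It had 15, 6, 4, 0 and 30 reads in controls and 0, 0, 4, 0, 0 and 1 in mutants, and entered the fit through controls. The list was chosen with earlier results known, so the call of Tmem8c is a description and supports no change. Chrna1, the alpha subunit of the muscle acetylcholine receptor, went the other way. It stood at 5.31, 2.06, 3.82, 3.37 and 3.57 CPM in controls and 8.79, 13.4, 5.44, 7.31, 6.49 and 16.9 CPM in mutants, all above the controls (1.41, SE 0.26, edgeR adjusted p 0.039, and 0.0237 without control 5). Called higher were 0.702% of all genes, and for 1.29% the mutants lay wholly above the controls. The gap for Chrna1 was small, between 5.31 CPM in control 1 and 5.44 CPM in mutant 3. Myog (-1.76, edgeR adjusted p 0.117) and Myf5 (-1.25, adjusted p 0.13) did not pass. The median log2 fold change of the list was -1.25.

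Of the 8 genes of migrating muscle precursors, 0 passed in edgeR, and their median log2 fold change was 0.24. Pax3, the factor that marks precursors leaving the somite, stood at 25.3 to 43.5 CPM in controls and 31.8 to 52.9 CPM in mutants. Lbx1, needed for migration into the limb, stood at 1.47 to 3.97 and 3.37 to 5.78 CPM (0.82, SE 0.23, edgeR adjusted p 0.0696), and Met, the receptor for scatter factor, at 9.70 to 15 and 10.8 to 18.3 CPM. The groups overlapped for all 3 genes. Mutant 4, with the lowest Acta1, had less Pax3 than controls 1, 2 and 5, and controls 3 and 4 had the lowest Pax3 of all libraries.

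The other 29 sarcomere genes gave 0 calls among the 19 that entered the fit, with a median log2 fold change of -0.46. Tnnt2 came nearest (-2.25, SE 0.67, edgeR adjusted p 0.0882). Tpm1 and Tpm2, tropomyosins that non-muscle cells also make, had the highest levels, 305 to 622 and 38.9 to 77.9 CPM over all libraries. Myl4, a myosin light chain gene, stood at 20.1 CPM in control 2 and 0.273 to 3.04 CPM elsewhere (log2 fold change -1.07, edgeR adjusted p 0.348). The adult fast heavy chain genes Myh1 and Myh2 and the fast troponin gene Tnnc2 had 1 read each over all libraries. Other fast troponins were measured in every library, Tnnt3 at 2.18 to 7.0 CPM and Tnni2 at 0.927 to 3.7 CPM.

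Heart and smooth muscle transcripts moved with part of the pattern. Of 11 cardiac genes with a read, 7 were highest in control 2, and the summed level of the list of 12 was 131 CPM there, against 6.11 to 15.2 CPM in the other controls and 9.02 to 34.8 CPM in mutants. Most of it was Myl7, the atrial light chain, at 107 CPM in control 2, 20.4 CPM in mutant 2 and 1.58 to 9.33 CPM in the others. Myh6 stood at 3.24 CPM and Mybpc3 at 1.08 CPM in control 2, and at most at 0.447 and 0.245 CPM elsewhere, while Nppa had no read in any library and Nkx2-5 had 1 read, in control 2. Acta2 and Tagln, of smooth muscle, were 165 and 48.4 CPM in control 2 and 3.29 to 21.0 and 5.24 to 28.9 CPM elsewhere. Of the 7 smooth muscle genes, 4 were highest in control 2 (Acta2, Tagln, Cnn1 and Actg2), and Myh11, Smtn and Lmod1 were highest in a mutant. Control 2 was also the library highest in Actc1, Tnni1 and Des, while mutant 2, next in Myl7, had 1.85 CPM of Actc1. The part of these cells in the levels of the 10 genes was not tested.

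In controls 1 and 5 the cardiac list summed to 13 and 15.2 CPM, within the range of the mutants, and Myl7 was 4.75 and 9.32 CPM there. Tnnt2, which that list does not hold, was 2.07 and 6.87 CPM in these controls, and 0.342 to 1.14 CPM in mutants. Control 5 was apart in other ways. It had the lowest level of the distal limb genes Hoxd13 (3.15 CPM, against 13.3 to 36.0 in the other controls) and Hoxd12 (0.35 CPM, against 9.27 to 38.8). For Meox1, a somite gene, control 5 had 51.9 CPM and the other libraries 14.7 to 25.9 CPM, and Foxc2 (2.80 CPM, against 0.813 to 1.98 elsewhere) and Uncx (7 reads) were highest there too. That made 3 of 8 somite genes highest in control 5, while Tbx18 was lowest there and Pax1 was highest in control 3 (16.2 CPM). Mutant 4, with Hoxd12 at 1.19 CPM and Hoxd13 at 6.66 CPM, had the lowest Acta1 of all libraries. The part of distal limb content or of somite tissue in the levels was not tested.

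**Figure D4:**
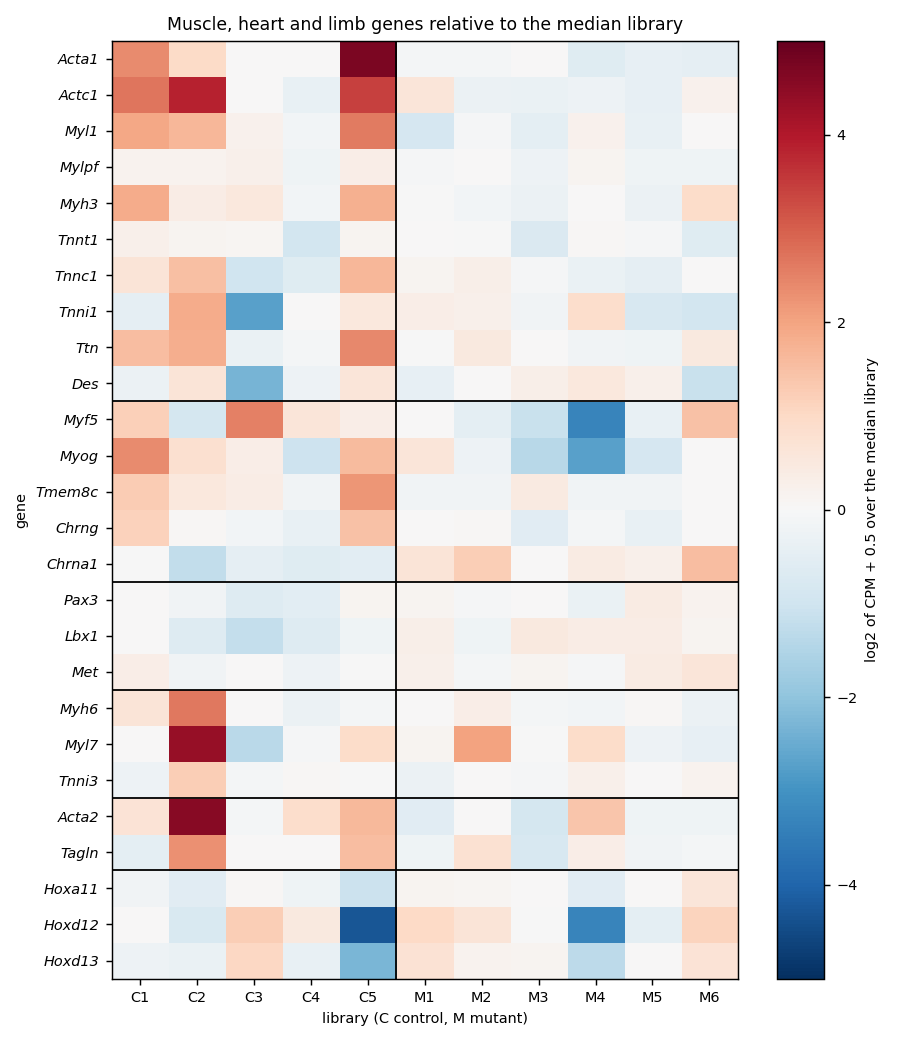
Log2 of CPM + 0.5 over that of the median library (colour) for the 10 genes and, under them, genes of commitment and differentiation, migrating precursors, heart, smooth muscle and distal limb (rows), in 5 controls and 6 mutants (columns). Control 5 is red for Acta1 and blue for Hoxd12, control 2 is red for Actc1, Myl7 and Acta2, and Pax3 is near white in every library.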

How the data were processed

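Forelimb bud RNA was sequenced after ribosomal RNA depletion, per the labels' protocols. The authors deposited whole-number counts for each gene name, made with featureCounts 1.4.6-p4 on mm10 and GENCODE M9 with a mapping quality of at least 10, per the file headers. STAR 2.5.4b is named in the submitters' processing notes. No option for strand was set, so reads were counted on both strands. The exon length that divides RPKM is another deposited column, per the file headers. The header lists 12 alignment files, and 11 columns were analysed here.

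Counts were tested in edgeR 4.0.16 (R 4.3.3, limma 3.58.1): filterByExpr left 15821 genes with 99.9% of counts, TMM scaling, a quasi-likelihood F test, two-sided, on litter and genotype, and p-values adjusted by Benjamini-Hochberg over every gene tested (threshold 0.05). Groups and litters came from the titles, and libraries were numbered in accession order. The script was tested on simulated data. Litter was used to pair the libraries. Log2 deviations from group means correlated by a median of 0.13 (-0.16 to 0.37) over 8 control and mutant pairs of the same litter. The median was -0.02 (-0.33 to 0.17) over 22 other pairs. These ranges overlap, and the pairs share libraries. Titles give each library a litter and an embryo number, so libraries are taken as separate embryos, and p-values measure the spread between these.

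The 10 genes and the 11 other lists were chosen with earlier results of these data known. Genes named were the 10, list genes that passed, up to 6 others a list by mean CPM, cell type markers, and the 8 most like the mean of the 10. Genes with 0 or 1 read, Tnnt3 and Tnni2 were named after their values were seen. Alternatives were RLE and upper-quartile scaling, 2 other filters, DESeq2 1.42.0, limma-voom, no litter block, and each library or litter left out. Longest runs of T in M21 transcripts of the 10 genes were 3 to 13 bases.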

Additional observations from a re-analysis of the deposited data

Results flagged for a closer look

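Dixon's 95% criterion was applied for each of the 10 genes, on log2 CPM (prior count 2). The highest and the lowest library of each genotype were examined. The criterion was met in 3 of 40 cases, and chance flags about 1 in 20 groups, or about 1 case here. The genes were chosen for their spread between controls, so flags in controls are a description only. The flags hold for the log2 scale only, and the levels given with them are CPM. Acta1 in control 5 was not flagged on that scale, at 26.1 CPM where the other controls had 0.523 to 4.75 CPM. Mylpf was lowest in control 4, at 13.4 CPM, where the other controls had 17.8 to 19.8 CPM. Tnnt1 was lowest in the same library, at 3.25 CPM, where the other controls had 7.09 to 8.05 CPM. The flags of Mylpf and Tnnt1 share control 4, and the levels of these genes were correlated, so they do not count separately. Myh3 was highest in mutant 6, at 0.675 CPM (11 reads), where the other mutants had 0 to 0.119 CPM. The difference between genotypes by litter was tested and gave no call.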

How the results depend on the processing

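The number of the 10 genes called was 3 in the reported fit, and 6 without a filter on low counts (1566 of all genes called), 1 where 5 libraries had to reach 1 CPM (550), 2 with DESeq2 (1194) and 0 without litter as a block, that is with no pairing of libraries (13 of all genes called in place of 345). It was 0 without litter A, B, C or D (9, 3, 1 and 163 of all genes), and 0 without controls 2 and 5. Leaving out 1 library gave 0 to 1 of the 10 and 1 to 846 of all genes. Acta1 held its call without control 2 or mutant 2, and Actc1 and Myl1 lost theirs in each of the 11. RLE, upper-quartile and limma-voom kept the count at 3. Fold changes of Acta1, Actc1 and Myl1 stayed below 0 in every alternative that gave a value. The filter of 1 CPM removed Acta1, Myl1, Myh3 and Ttn, and the median of the list was then -0.24; it was -1.75 to -0.58 without 1 library. Without the filter on low counts, 7 of the 10 were called between litters and 6 for the interaction. The share of all genes called in these 2 unfiltered tests is not given here, so the counts show nothing particular to the 10. Both counts were 0 in the fits that left out 1 library. The sign turned for Des with limma-voom (-0.028), without control 1, 3 or 4 or mutant 5 or 6 (range -0.16 to 0.30 over the 11 fits without 1 library) and without litter B (-0.16) or C (-0.051). It turned for Tnni1 without control 2 (range -0.61 to 0.35 over the 11 fits), litter A (0.16) or controls 2 and 5 (0.57), and for Tnnc1 without controls 2 and 5 (0.19). Few reads limit Acta1, Myh3, Ttn and Myl1 outside controls 1, 2 and 5. Acta1 had 3 to 8 reads in the mutants, under the filter's minimum count of 10, and entered the fit through controls. DESeq2 gave no adjusted p for Myl1, Myh3 or Ttn, and the interaction could be fitted without 1 library in 6 of the 11 cases.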

Other observations

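Of 14 genes of calcium release and muscle metabolism, 8 entered the fit and 0 passed in edgeR, with a median log2 fold change of 0.06. Eno3, an enolase of muscle, stood at 163 to 316 CPM, highest in control 5, and Ryr1, the calcium release channel of skeletal muscle, at 2.24 to 4.57 CPM, highest in mutant 1. Ckm, the creatine kinase of mature muscle, and Cacna1s, the voltage sensor of skeletal muscle, had no read in any library. The hindlimb gene Pitx1 stood at 4.07 CPM in control 2 and at most at 0.595 CPM in the other libraries.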
